A study of Mus musculus with 12 samples.

Results

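A set of 10 genes of adipocytes and lipid droplets was followed in the left ventricle of 12 male mice: Adipoq, Cfd, Retn, Cidea, Plin1, Slc36a2, Scd1, Lipe, Ces1d and Dgat2. They were taken by gene symbol, with all probe sets that the platform annotation gives to that symbol alone. Of these 10 genes, 8 had a probe set, 13 probe sets in all, out of 18193 genes with a probe set of 1 symbol. For Cfd (adipsin) and Plin1 (perilipin 1, the droplet coat protein of fat cells) the annotation names no probe set, and neither was analysed here.

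Each heart was hybridised to its own Affymetrix whole-genome mouse array. The transgene of the transgenic (TG) mice, ATF6-MER, joins the endoplasmic reticulum stress transcription factor ATF6 to a mutant mouse estrogen receptor domain that tamoxifen activates; the labels do not give the promoter that drives it. Non-transgenic (NTG) littermates lack it, and mice of both genotypes received tamoxifen or vehicle, giving 4 groups of 3 hearts, each named here by genotype and treatment (TG tamoxifen, for example). All mice were C57BL/6, and the labels give an age of about 30 weeks for 11 mice and 40 weeks for TG tamoxifen 1. The treatment field of TG vehicle 3 reads tamoxifen, against its title, by which it was grouped.

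Fat cells store triglyceride in lipid droplets, which a coat of proteins separates from the cytosol. Acyltransferases such as Dgat2 build the triglyceride, and lipases and esterases such as Lipe and Ces1d release its fatty acids. The heart burns fatty acids as its main fuel, and its muscle cells hold small droplets of their own, so several genes used to describe fat are also active in cardiac muscle. In whole ventricle, fewer cells of a type and less RNA per cell cannot be told apart.

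One array went against its label, and this touches every comparison with the NTG tamoxifen group. The Esr1 probe set, which can read the estrogen receptor portion of the transgene, had log2 values of 16.66 to 18.25 on the 6 TG arrays. It was 17.72 on the array labelled NTG tamoxifen 1 and at most 10.88 on the other NTG arrays. Hspa5, the endoplasmic reticulum chaperone BiP and a classical ATF6 target, was 18.37 to 18.47 on the TG tamoxifen arrays, 18.05 on the array labelled NTG tamoxifen 1 and 15.49 to 16.39 on all others, TG vehicle 3 included with 15.94. Results that involve the NTG tamoxifen group are therefore given with and without the array labelled NTG tamoxifen 1, a choice made after its values were seen.

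Levels are log2(intensity + 16) after quantile normalization, and a change of 1 on this scale is a doubling except at low signal, where the offset makes changes look smaller. Levels of different probe sets are not compared as amounts of RNA. As a description of signal, each probe set was placed among the 45037 probe sets tested, whose median was 9.42 on the log2 scale. Adipoq (adiponectin, a hormone made by fat cells) lay at percentile 23.0 and Retn (resistin, another fat cell hormone of mice) at percentile 49.4. Ucp1, the uncoupling protein that defines brown fat, lay at percentile 9.12. Cidea lay at percentile 92.7, Slc36a2 at 78.8, the brighter probe sets of Scd1 and Lipe at 77.1 and 78.9, those of Ces1d at 76.8 to 92.0 and those of Dgat2 at 94.4 and 96.7. The defining hormones of the fat cell were thus dim in these hearts, and 9 of the 13 probe sets, from the other genes, were above the median probe set.

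The question the design puts first is what tamoxifen did in ATF6-MER hearts. In TG tamoxifen hearts Ces1d and Slc36a2 fell relative to TG vehicle hearts, Ces1d 6.57-fold to 10.4-fold over its 3 probe sets and Slc36a2 3.23-fold. No member rose. By limma's moderated test with Benjamini-Hochberg adjustment over all probe sets, 4 of 13 probe sets passed an adjusted p of 0.05, all lower, where 3.10% of all probe sets were called and 1.70% were called lower. The 4 calls were the 3 Ces1d probe sets and Slc36a2. Bright probe sets were called more often. When only those at or above the median probe set were tested, 18.3% of them were called in either direction. The count of members under that filter is given with the alternatives. The median change of the 13 probe sets was -0.94 on the log2 scale, and that of all probe sets was -0.02. For 8 of the 13 probe sets every TG tamoxifen array was below every TG vehicle array, as for 13.8% of all probe sets. All 8 were above the median probe set. The calls rest on few hearts: leaving out any TG tamoxifen array, TG vehicle 2 or TG vehicle 3 left 0 of them. Leaving out TG vehicle 1 or any NTG vehicle array left 2. Calls over all probe sets fell as well, to between 0.0355% and 0.18% in the first case and between 1.08% and 1.89% in the second. Grouping TG vehicle 3 by its treatment field also left 0, as did dropping it together with TG tamoxifen 1 (6 and 8 members at an unadjusted p under 0.05 by limma). Of all probe sets 0.00888% and 0% were then called. Under every alternative run the change stayed between -3.26 and -2.45 for Ces1d on 1449081_at and between -1.76 and -1.24 for Slc36a2.

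**Figure D1:**
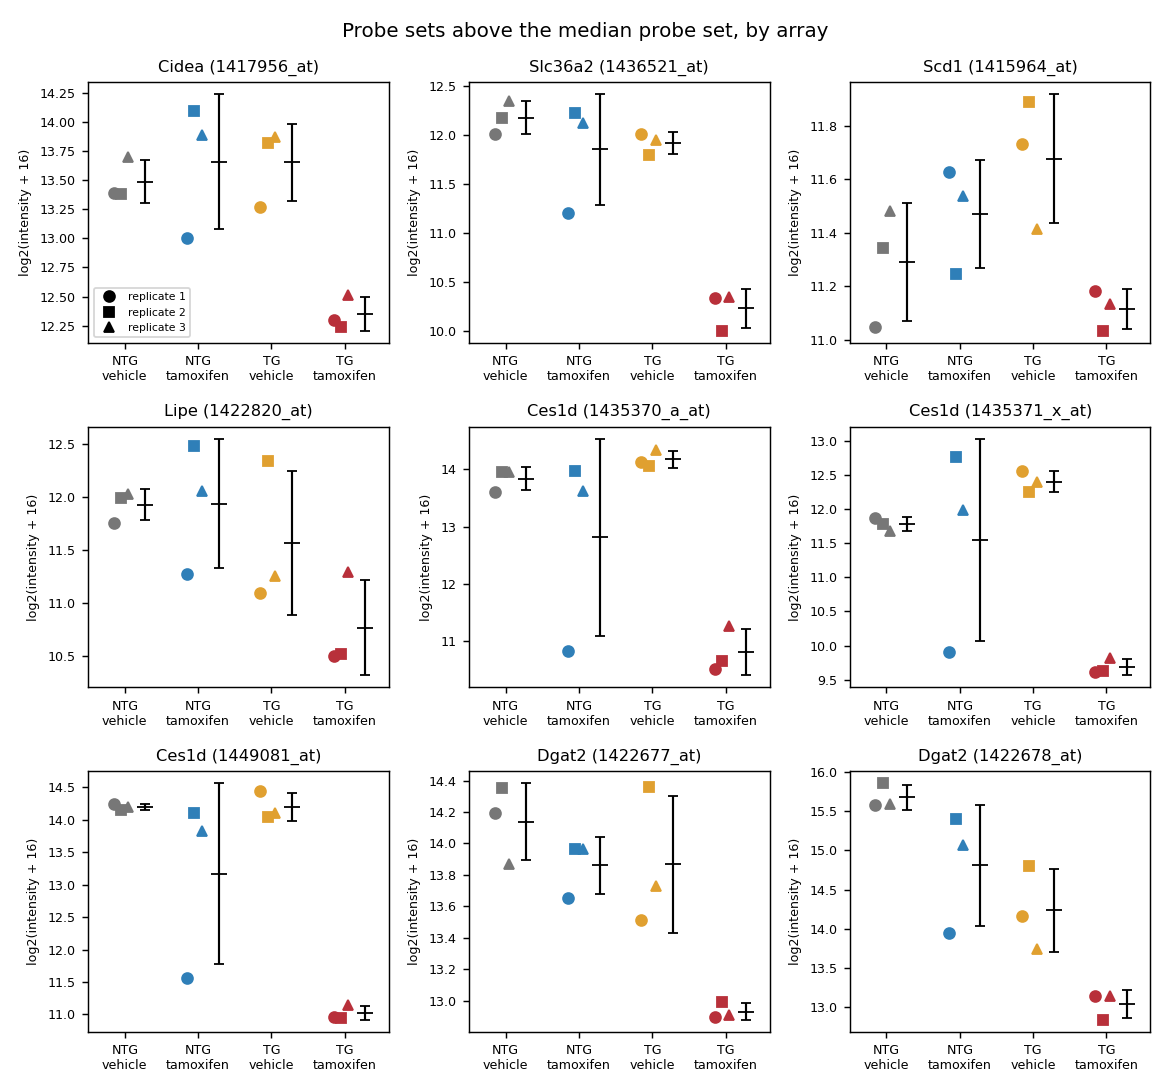
Log2(intensity + 16) of the 9 probe sets above the median probe set on each of the 12 arrays, by group on the horizontal axis; coloured symbols are single hearts and the black bars are the mean and SD of 3. The TG tamoxifen hearts lie below all TG vehicle hearts in every panel but that of Lipe. The array labelled NTG tamoxifen 1 (blue circle) is the lowest NTG tamoxifen array in every panel but that of Scd1.

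Ces1d encodes a carboxylesterase of the endoplasmic reticulum and lipid droplet that hydrolyses triglyceride, and lies on chromosome 8 at 93166072 to 93197804 (GRCm38.p6, from the RefSeq table). On its brightest probe set, 1449081_at, the log2 values by replicate number were 10.97, 10.95 and 11.14 in TG tamoxifen hearts and 14.44, 14.04 and 14.11 in TG vehicle hearts. NTG vehicle hearts had 14.24, 14.15 and 14.20, and the arrays labelled NTG tamoxifen had 11.56, 14.11 and 13.83. The TG tamoxifen values thus lay below those of every other array, with the array labelled NTG tamoxifen 1 next to them. The change against TG vehicle was -3.18 ± 0.54 (SE, n = 3 per group, limma adjusted p = 0.0231).

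The other Ces1d probe sets were also lower on every TG tamoxifen than on every TG vehicle array, and on 1435370_a_at the array labelled NTG tamoxifen 1, with 10.82, lay among the TG tamoxifen arrays. On 1435370_a_at the TG tamoxifen values were 10.50, 10.64 and 11.27 and the TG vehicle values 14.13, 14.06 and 14.34, a change of -3.37 ± 0.67 (SE, n = 3 per group, limma adjusted p = 0.0325). On 1435371_x_at they were 9.61, 9.62 and 9.83 against 12.56, 12.25 and 12.40, a change of -2.72 ± 0.57 (SE, n = 3 per group, limma adjusted p = 0.0366). By Affymetrix's naming, the suffix _x_at marks a probe set with probes that can match other transcripts. Carboxylesterase genes are close copies of each other, so part of the 1435371_x_at signal could come from a relative. The suffix of 1435370_a_at is not a sign of this, and whether its signal is shared was not tested. Of 15 other carboxylesterases listed, 10 had a probe set and 0 passed the limma test in this comparison, 0 of them even at an unadjusted p under 0.05. Their median change was -0.24, and 3 of the 10 were above the median probe set.

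Slc36a2 encodes a proton-coupled amino acid transporter used as a surface marker of brown fat cells (chromosome 11, 55158468 to 55185099, GRCm38.p6). Its log2 values were 10.34, 9.9996 and 10.35 in TG tamoxifen hearts and 12.01, 11.80 and 11.95 in TG vehicle hearts. NTG vehicle hearts had 12.01, 12.17 and 12.35, and the arrays labelled NTG tamoxifen had 11.20, 12.23 and 12.12. All TG tamoxifen values were below all others, and the next lowest was the array labelled NTG tamoxifen 1. The change against TG vehicle was -1.69 ± 0.28 (SE, n = 3 per group, limma adjusted p = 0.0227). The 3 related transporters Slc36a1, Slc36a3 and Slc36a4 gave 0 calls by limma (1 at an unadjusted p under 0.05), with changes of -0.57, 0.52 and 0.73.

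Cidea encodes a lipid droplet protein that promotes droplet growth in brown fat (chromosome 18, 67343564 to 67367794, GRCm38.p6). Its values were 12.30, 12.24 and 12.52 in TG tamoxifen hearts, 13.27, 13.82 and 13.87 in TG vehicle hearts, and 13.39, 13.38 and 13.70 in NTG vehicle hearts. The arrays labelled NTG tamoxifen had 13.00, 14.09 and 13.89. TG tamoxifen did not overlap any other group, yet the change of -1.30 ± 0.31 (SE, n = 3 per group) against TG vehicle stopped just short of the threshold (limma adjusted p = 0.0510).

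Dgat2, the acyltransferase of the last step of triglyceride synthesis (chromosome 7, 99153663 to 99182713, GRCm38.p6), behaved alike on both probe sets within TG hearts. On the brighter one, 1422678_at, TG tamoxifen hearts had 13.15, 12.84 and 13.14 and TG vehicle hearts 14.16, 14.79 and 13.75. NTG vehicle hearts had 15.58, 15.85 and 15.59, and the arrays labelled NTG tamoxifen had 13.94, 15.40 and 15.07. TG vehicle hearts were therefore below NTG vehicle hearts already, without overlap. The changes of TG tamoxifen against TG vehicle were -1.19 ± 0.39 on this probe set and -0.94 ± 0.26 on 1422677_at (SE, n = 3 per group), and neither passed the limma test (adjusted p = 0.123 and 0.0783).

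Scd1, the desaturase that makes monounsaturated fatty acids (chromosome 19, 44394450 to 44407709, GRCm38.p6), had values of 11.18, 11.03 and 11.13 in TG tamoxifen hearts and 11.73, 11.89 and 11.42 in TG vehicle hearts on 1415964_at. The groups did not overlap, but the change of -0.56 ± 0.22 (SE, n = 3 per group) did not pass the limma test (adjusted p = 0.193). Its dimmer probe set, 1415965_at, gave -0.01 (limma adjusted p = 0.995), so the probe sets of this gene disagreed in size.

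Lipe, the hormone-sensitive lipase that hydrolyses diacylglycerol (chromosome 7, 25379527 to 25398486, GRCm38.p6), overlapped between the groups. On 1422820_at the TG tamoxifen values were 10.49, 10.51 and 11.29 and the TG vehicle values 11.09, 12.34 and 11.26. The change of -0.80 ± 0.41 (SE, n = 3 per group) did not pass the limma test (adjusted p = 0.323). Its other probe set, 1432180_at, was dim and gave 1.01 ± 1.001 (adjusted p = 0.645), the opposite sign within a wide error.

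The fat cell hormones could not be told apart between groups at their low signal. Adipoq (chromosome 16, 23146536 to 23157968, GRCm38.p6) ran from 5.71 to 9.34 over the 12 arrays, with 7.93, 6.56 and 8.35 in TG tamoxifen and 6.55, 7.29 and 9.19 in TG vehicle hearts. Its change was -0.07, with a 95% interval from -2.12 to 1.99 (limma adjusted p = 0.981). Retn (chromosome 8, 3655770 to 3659818, GRCm38.p6) had 7.04, 9.82 and 10.95 against 9.60, 9.10 and 8.79, a change of 0.11 with a 95% interval from -2.02 to 2.23 (limma adjusted p = 0.971). Intervals this wide leave room for changes larger than those called for Slc36a2.

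**Figure D2:**
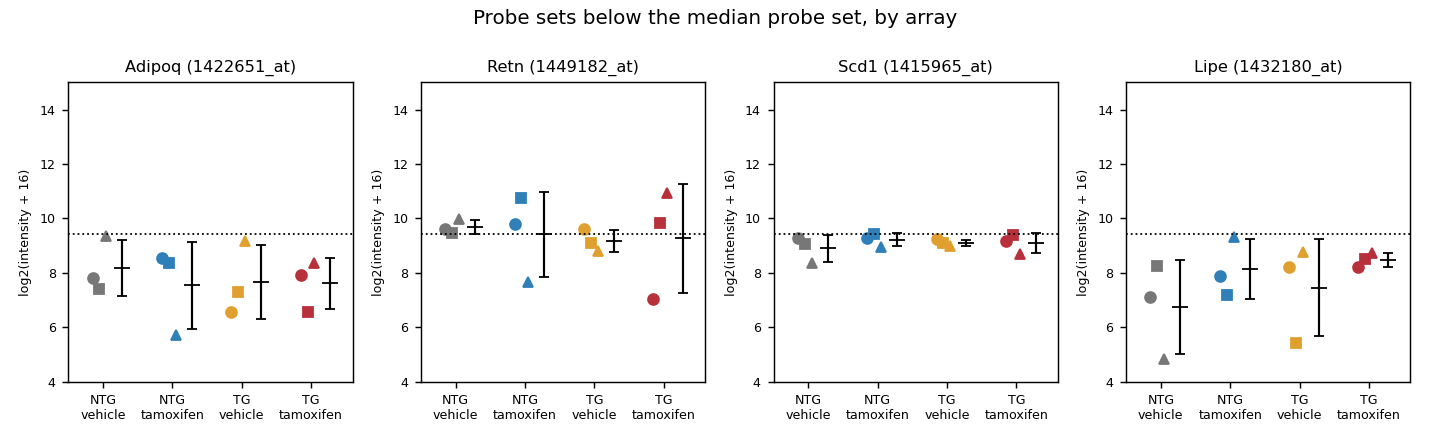
Log2(intensity + 16) of the 4 probe sets below the median probe set (dotted line, 9.42) on each of the 12 arrays; symbols are single hearts, circle, square and triangle being replicates 1, 2 and 3, and the black bars are the mean and SD of 3. The groups overlap in all 4 panels, and single arrays of a group differ by several log2 units for Adipoq, Retn and the dim Lipe probe set.

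Tamoxifen in NTG mice asks what the drug did without the transgene. None of the 13 probe sets passed the limma test (1 at an unadjusted p under 0.05), where 0.0666% of all probe sets were called. That 1 was Dgat2 on 1422678_at, with a change of -0.87. On 2 of the 13 every tamoxifen array was below every vehicle array, as on 11% of all probe sets. The median change of the 13 was -0.28, and without the array labelled NTG tamoxifen 1 there were again 0 calls (1 at an unadjusted p under 0.05, 0.0311% of all called). On 1449081_at the Ces1d change was -1.03 with all arrays and -0.23 without that array. For Slc36a2 the change was -0.32 with all arrays and 0.00 without that array, and for Cidea it was 0.17 and 0.50. The sign of the Cidea value changed under median centring, as did others near 0.

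The transgene without tamoxifen, TG vehicle against NTG vehicle, gave 0 of 13 calls by limma as well (1 at an unadjusted p under 0.05), where 0.198% of all probe sets were called. Dgat2 on 1422678_at was the one member at an unadjusted p under 0.05, with a change of -1.44 ± 0.39 (SE, n = 3 per group, limma adjusted p = 0.138). Its other probe set gave -0.27. Ces1d gave 0.34, 0.62 and 0.00 on its 3 probe sets (1435370_a_at, 1435371_x_at and 1449081_at), none past the test, although TG vehicle was higher without overlap on the first pair, as were 11.5% of all probe sets (11.4% were lower without overlap, as Dgat2 on 1422678_at was). Without the array labelled NTG tamoxifen 1, which adds to the shared spread, there were 0 calls again (2 at an unadjusted p under 0.05 by limma, 0.298% of all called).

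Between the tamoxifen-treated genotypes, Cidea, Slc36a2, Dgat2 and Ces1d were lower in TG hearts. This comparison shares the TG tamoxifen arrays with the one above, so the comparisons are not independent. By limma 5 of 13 probe sets passed the test, all lower, where 13.7% of all probe sets were called and 6.51% were called lower. When only probe sets at or above the median probe set were tested, 37.5% of them were called in either direction. The changes were -1.31 ± 0.31 for Cidea (adjusted p = 0.0205), -1.62 ± 0.28 for Slc36a2 (adjusted p = 0.00687) and -2.15 ± 0.54 for Ces1d on 1449081_at (adjusted p = 0.0271), with n = 3 per group. On the Dgat2 probe sets they were -0.93 ± 0.26 (adjusted p = 0.0384) and -1.76 ± 0.39 (adjusted p = 0.0156). The second of these, 1422678_at, was already lower by -1.44 in TG vehicle than in NTG vehicle hearts. Its difference between the tamoxifen effects was -0.32 (limma adjusted p = 0.812). Every TG tamoxifen array was below every NTG tamoxifen array on 7 of 13 probe sets, as on 16.8% of all. All 7 were above the median probe set. The other Ces1d probe sets gave -2.01 and -1.87, and missed the threshold (limma adjusted p = 0.0763 and 0.0547).

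Leaving out TG tamoxifen 2, NTG tamoxifen 2 or NTG tamoxifen 3 left a count of 1, where 7.06% to 8.9% of all probe sets were called. A fit of only the groups compared left 0 (7 at an unadjusted p under 0.05 by limma), where 4.67% of all probe sets were called. Leaving out the array labelled NTG tamoxifen 1 raised the count to 8, where 15.3% of all probe sets were called. All 3 Ces1d probe sets were then called, with changes of -3.00, -2.70 and -2.95, and Lipe joined on 1422820_at with -1.51 ± 0.41 (limma adjusted p = 0.0382). The same array adds to the spread of the shared fit, and TG tamoxifen against TG vehicle also moved, from 4 to 6 calls at 5.72% of all probe sets called. Cidea (limma adjusted p = 0.0136) and Dgat2 on 1422678_at (adjusted p = 0.0428) were the additions.

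The difference between the tamoxifen effects in the genotypes is the direct test that a change depends on the transgene. With all arrays 0 of 13 probe sets passed it by limma (6 at an unadjusted p under 0.05), where 0.0355% of all probe sets were called. Without the array labelled NTG tamoxifen 1 it was passed by 5, where 2.83% of all probe sets were called. These were Cidea (-1.80 ± 0.34, limma adjusted p = 0.0328), Slc36a2 (-1.70 ± 0.29, adjusted p = 0.0260) and the 3 Ces1d probe sets (-3.34, -3.32 and -2.96, adjusted p between 0.00601 and 0.00753). Under the main settings, a call for these genes therefore rests on leaving out an array whose transgene signal opposes its label. Over the alternative settings run, Cidea and Slc36a2 were each called in 4 of 23 and Ces1d on 1435371_x_at in 2 of 22. The other Ces1d probe sets were each called in 1.

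**Figure D3:**
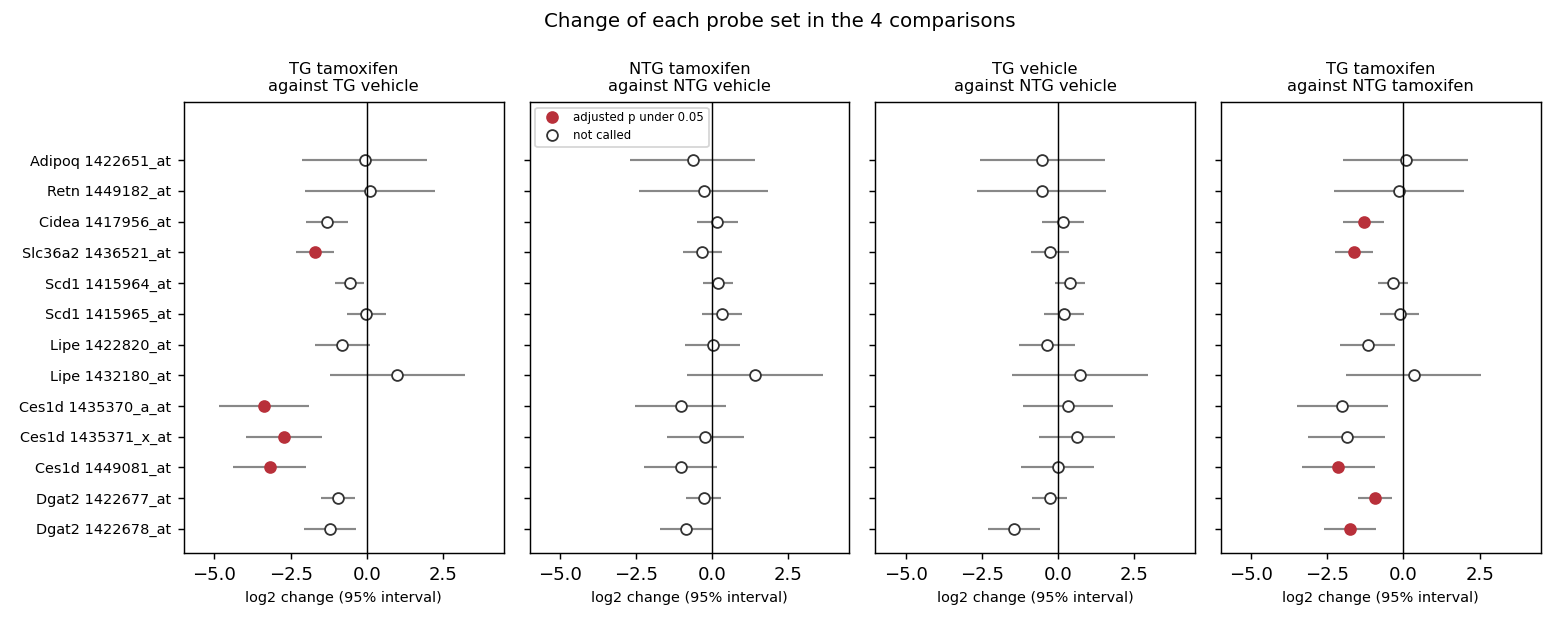
Log2 change with its 95% interval for each of the 13 probe sets in 4 comparisons, all arrays included; filled red points passed a limma adjusted p of 0.05. Calls appear in the first and the last panel, all below 0, and in both of these panels the Ces1d changes are the lowest.

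**Figure D4:**
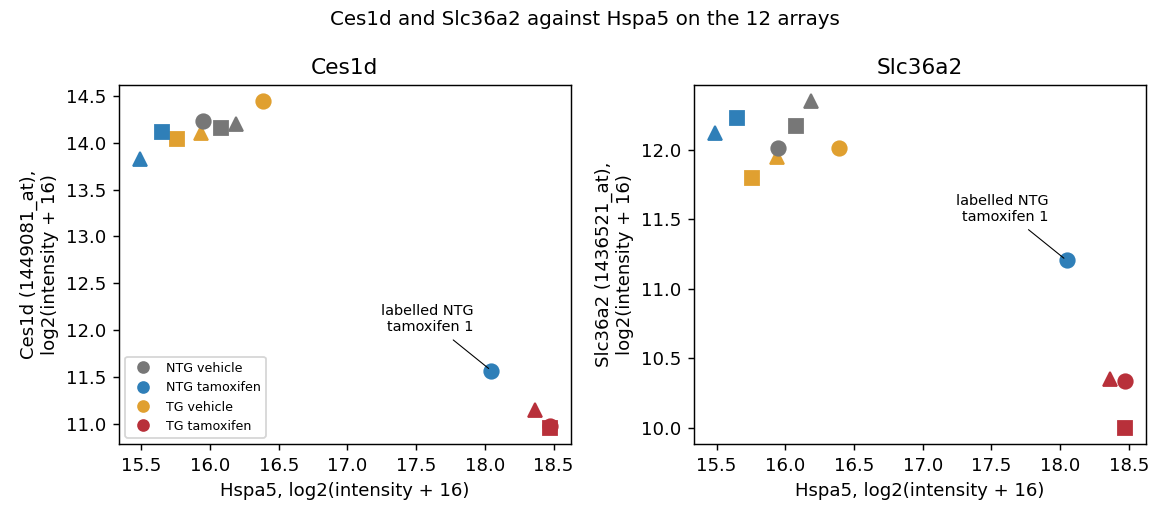
Log2(intensity + 16) of Ces1d (left) and Slc36a2 (right) against Hspa5 on the 12 arrays, coloured by labelled group with circle, square and triangle for replicates 1, 2 and 3. The array labelled NTG tamoxifen 1 has a Hspa5 value of 18.05 and is the array closest to the TG tamoxifen arrays, while the other NTG tamoxifen arrays lie with the vehicle arrays.

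Other genes of droplets and fatty acid metabolism were counted with 1 probe set per gene, the brightest. Among 24 genes of the lipid droplet coat, triglyceride storage and lipolysis, 7 fell in TG tamoxifen against TG vehicle and 0 rose, where 1.70% of all probe sets were called lower. The list is brighter than most probe sets, with 22 of 24 genes above the median probe set. When only the brightest probe set of each gene above that median was tested, 2774 of these 11166 genes (24.8%) were called, 1608 of them lower. Of this list 12 were then called, all lower. The median change of the list was -0.83, against -0.02 over all probe sets. Those that fell were Plin3, Plin4, Plin5, Pnpla2, Mgll, Lpin1 and Fitm2. With the array labelled NTG tamoxifen 1 left out, 10 of the 24 fell. Leaving out any TG tamoxifen array, TG vehicle 2 or TG vehicle 3 left 0 calls, as did grouping TG vehicle 3 by its treatment field. Of all probe sets 0.00888% to 0.18% were called in these settings.

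Plin5, the perilipin of oxidative muscle that ties droplets to mitochondria, had 11.87, 12.24 and 12.43 in TG tamoxifen hearts and 14.70, 14.68 and 15.14 in TG vehicle hearts. Its change was -2.66 ± 0.49 (SE, n = 3 per group, limma adjusted p = 0.0275). The second Plin5 probe set gave -3.11. Pnpla2, the lipase (ATGL) that takes the first fatty acid from triglyceride, had 13.05, 13.09 and 12.95 against 14.41, 15.06 and 14.50. Neither gene overlapped between the groups. The Pnpla2 change was -1.62 ± 0.25 (SE, n = 3 per group, limma adjusted p = 0.0210), and its dim second probe set gave -0.39 (adjusted p = 0.867). Plin4, a perilipin of fat and muscle, changed by -1.84 ± 0.36 (limma adjusted p = 0.0300) and Fitm2, a protein needed for droplet budding, by -1.62 ± 0.31 (adjusted p = 0.0287). In TG tamoxifen against NTG tamoxifen 12 of the 24 genes were lower and 0 higher, where 6.51% of all probe sets were called lower. When only the brightest probe set of each gene above the median probe set was tested, 4409 of these 11166 genes (39.5%) were called, 2294 of them lower. This list then had 14 calls, 13 lower and 1 higher. The 12 genes were led by Lpin1 (-2.03 ± 0.27, limma adjusted p = 0.00376), a phosphatidate phosphatase, and Pnpla2 (-1.80 ± 0.25, adjusted p = 0.00403).

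Among 15 other adipocyte genes with a probe set, 2 fell in TG tamoxifen against TG vehicle and 0 rose, against the same 1.70% of all probe sets called lower, with a median change of -0.19. They were Plin4 and Thrsp (-1.61 ± 0.33, limma adjusted p = 0.0357), a regulator of lipogenesis. Plin4, Agpat2 and Cidec are in this list and in the droplet list, so the Plin4 call is counted in both. Among 15 genes of fatty acid synthesis and desaturation, Acacb alone was called, lower with -1.98 ± 0.37 (limma adjusted p = 0.0277), and the median change was 0.19. In these lists 9 and 13 genes were above the median probe set. When only the brightest probe set of each gene above that median was tested, 2774 of these 11166 genes (24.8%) were called, 1608 of them lower. The adipocyte list then had 4 calls, all lower, and the synthesis list 5, with 4 lower and 1 higher. With all probe sets tested, both lists had 0 calls without any one TG tamoxifen array, TG vehicle 2, TG vehicle 3 or NTG vehicle 2. Of all probe sets 0.0355% to 1.08% were then called. Acacb makes the malonyl-CoA that restrains fatty acid entry into mitochondria; its dim second probe set gave 0.04. Without the array labelled NTG tamoxifen 1 the synthesis list had 3 calls, with Srebf1 and Acss2 as the additions. Against NTG tamoxifen, where 6.51% of all probe sets were called lower and 7.17% higher, 5 adipocyte genes were lower (Plin4 and Agpat2 with the smallest p) and Fabp4 was higher, while Acacb and Srebf1 were lower and Me1 was higher in the synthesis list. Without the array labelled NTG tamoxifen 1 the adipocyte list had 3 calls, all lower. The Fabp4 change was 0.89 (limma adjusted p = 0.0322) with all arrays and 0.83 (adjusted p = 0.0640) without that one. Fabp4 did not rise within TG hearts: it changed by -0.07 in TG tamoxifen against TG vehicle. In NTG tamoxifen against NTG vehicle it changed by -1.13 (limma adjusted p = 0.112). Me1 was 13.16, 13.22 and 12.30 on the arrays labelled NTG tamoxifen and 13.78, 13.88 and 13.34 in NTG vehicle hearts. It was 14.16, 13.97 and 13.91 in TG tamoxifen and 13.77, 13.68 and 13.57 in TG vehicle hearts. Fabp4, Me1, Srebf1 and Acss2 are named because the counts are small, after their values were seen.

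**Figure D5:**
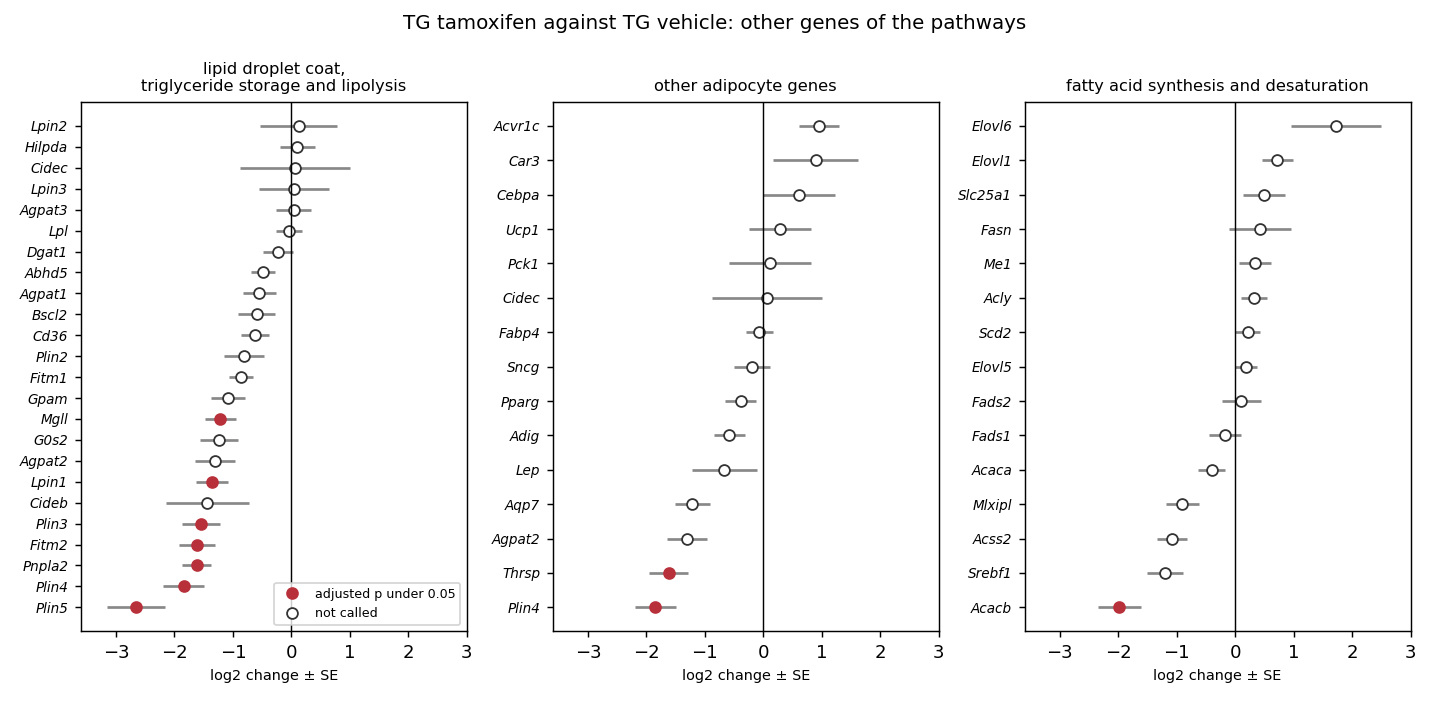
Log2 change ± SE in TG tamoxifen against TG vehicle for each gene of 3 lists, sorted by change within a list; filled red points passed a limma adjusted p of 0.05. Called genes are all below 0, with 7 in the droplet list (left), 2 in the adipocyte list (middle) and 1 in the synthesis list (right).

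Other measures moved beside these results. The summed intensity of 6 endothelial markers was 27969 to 31647 on TG tamoxifen and 35451 to 47128 on TG vehicle arrays, with 0 of 6 called. That of 9 cardiomyocyte markers was 2589700 to 2640050 against 2798810 to 2851600, with 0 of 9 called. The 6 fibroblast markers summed to 189184 to 221812 against 223967 to 258733, also without overlap and with 0 of 6 called. Their single changes went both ways, from -0.64 for Dcn, the brightest, to 0.95 for Col3a1. Col3a1 was higher on every TG tamoxifen than on every TG vehicle array. Of 6 macrophage and leukocyte markers 2 rose, Ptprc (1.40 ± 0.28, limma adjusted p = 0.0334) and Itgam (2.64 ± 0.53, adjusted p = 0.0336), though the sums overlapped. The 3 fat cell markers measured, Adipoq, Retn and Cidea, summed to 5381 to 8121 on TG tamoxifen and 10715 to 15904 on TG vehicle arrays, a sum carried by Cidea. The ratio of the 3′ to the 5′ beta-actin control probe set, a sign of RNA quality, was 1.75 to 1.88 in TG tamoxifen and 1.32 to 1.68 in TG vehicle hearts (exact two-sided permutation p = 0.1, the smallest that 3 against 3 arrays can give). The same ratio was 2.12 to 2.43 in NTG vehicle hearts and 1.78 to 1.97 on the arrays labelled NTG tamoxifen. By the same permutation test p was 0.1 in TG vehicle against NTG vehicle and in NTG tamoxifen against NTG vehicle. It was 0.3 in TG tamoxifen against NTG tamoxifen. The part of these measures in the results was not tested.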

How the data were processed

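RNA from 12 left ventricles was measured on Affymetrix whole-genome mouse arrays, per the labels. The authors deposited linear intensities (1.02 to 537040) for 45101 probe sets. Every array has the same 2% trimmed mean, 2500.02, in the deposited values; the software used is not given in the sources used here. Gene names came from the platform annotation (34945 probe sets with 1 symbol, 932 with several, 9160 with none).

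As array medians differed by 0.35 log2 units, over the limit of 0.2, values were quantile normalized and taken as log2(intensity + 16). One limma fit (3.58.1, R 4.3.3) of 4 group means covered all 45037 probe sets other than 64 controls, with Benjamini-Hochberg adjustment and a threshold of 0.05. Hearts were separate mice, per the labels; the number of arrays limits the precision.

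On simulated data for TG tamoxifen against TG vehicle (45037 probe sets, 200 changed), the fit recovered 0% of changes of 1 log2 unit, 40.3% of 2 and 66.7% of 4, with 2 false calls. Sizes of 1 and 2, then of 2 and 4, were tried before these 3.

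Named genes were all members, Esr1 and Hspa5, and from each list the called genes with the smallest adjusted p (up to 4 in TG tamoxifen against TG vehicle, 2 in other comparisons). Further names follow from small counts, and Dcn and Col3a1 were named after their values were seen. Members and lists were chosen with earlier results of these data known. Alternatives covered offset, scaling, filters, trend, array weights, label conflicts, a replicate block and each array left out.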

Additional observations from a re-analysis of the deposited data

How the results depend on the processing

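The counts of members called depended on the processing, and with 3 hearts a group the limits are wide. In TG tamoxifen against TG vehicle the 4 calls became 7 with only probe sets at or above the median probe set tested (18.3% of all called) and 7 with an intensity trend in the prior (8.84%). They became 0 with TG vehicle 3 grouped as TG tamoxifen, 0 without both arrays whose labels conflict and 0 with a replicate block, against 6, 8 and 7 members at an unadjusted p under 0.05 by limma. Of all probe sets 0.00888%, 0% and 0.535% were then called. Leaving out 1 array gave 0 to 6. No call was left after dropping any TG tamoxifen array, TG vehicle 2 or TG vehicle 3 (0.0355% to 0.18% of all called). Without TG vehicle 1 or any NTG vehicle array 2 were left (1.08% to 1.89%), and without the array labelled NTG tamoxifen 1 there were 6 (5.72%). In TG tamoxifen against NTG tamoxifen the 5 calls became 8 with that filter (37.5% of all called), 8 with the trend (18.5%) and 8 with array weights (15.4%). They became 1 with TG vehicle 3 regrouped (7.58%), 1 without both conflicting arrays (5.22%) and 0 with only the groups compared in the fit (4.67%, 7 members at an unadjusted p under 0.05 by limma). Leaving out 1 array gave 1 to 8. Dropping TG tamoxifen 2 or NTG tamoxifen 2 or 3 left 1 (7.06% to 8.9% of all called), dropping TG tamoxifen 1 left 2 (7.26%) and dropping TG tamoxifen 3 left 3 (7.82%). Without the array labelled NTG tamoxifen 1 there were 8 calls (15.3%). TG vehicle against NTG vehicle rose from 0 to 1 with the filter (6.12% of all called), 1 with the filter and 1 probe set per gene (3.63%), and 1 with the trend (2.91%). The difference between tamoxifen effects rose from 0 to 2, 2 and 3 under these (10.6%, 14.3% and 5.22% of all called), and ran from 0 to 5 with 1 array left out, 5 without the array labelled NTG tamoxifen 1. NTG tamoxifen against NTG vehicle stayed at 0 under each alternative run. Nothing in the labels says that replicate numbers link mice. Same-numbered arrays correlated between -0.02 and 0.04 in their deviations from the group means, and other pairs between -0.03 and 0.03. These values cannot show whether the hearts were matched. The cause of these shifts was not tested.

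The list counts, whose alternatives were chosen after seeing the data, moved likewise in TG tamoxifen against TG vehicle. The shares of all probe sets called in most of these settings are given above. They were 5.42% with array weights, 3.93% with log2(value + 64) and 1.15% with only the groups compared. In TG tamoxifen against NTG tamoxifen the share was 10.5% with the replicate block. The droplet list (7) gave 12 with the filter and 1 probe set per gene, 11 with the filter, 12 with the trend, 0 with TG vehicle 3 regrouped, 0 without both conflicting arrays, 2 with the replicate block, 3 with only the groups compared and 0 to 10 with 1 array left out. Dropping any TG tamoxifen array, TG vehicle 2 or TG vehicle 3 left 0, and TG vehicle 1 or NTG vehicle 1, 2 or 3 left 4, 2, 1 and 3. The adipocyte list (2) gave 4, 4 and 4 under the first 3, 4 with array weights, 0 regrouped, 0 without the conflicting arrays, 0 with the block, 1 with only the groups compared and 0 to 3 with 1 array left out (0 for the arrays just named other than TG vehicle 1). The synthesis list (1) gave 2 with log2(value + 64), 5, 4 and 3 under the first 3, 3 with weights, 0 under the label alternatives, the block and the compared groups alone, and 0 to 3 with 1 array left out (0 for any TG tamoxifen array, TG vehicle 2 or 3 or NTG vehicle 2, 3 for the array labelled NTG tamoxifen 1). In TG tamoxifen against NTG tamoxifen the droplet list (12) gave 4 regrouped, 5 without the conflicting arrays and 5 with only the groups compared (8 to 12 with 1 array left out). The adipocyte list (6) gave 1, 1, 3 with the block and 2 (2 to 6 with 1 array left out: 2 for each TG tamoxifen array, 3 for each NTG tamoxifen array and NTG vehicle 2), and the synthesis list (3) gave 1, 1 and 1 (1 to 3, with 1 for TG tamoxifen 3 or NTG tamoxifen 3).

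Over all 65 pairs of member probe set and comparison plus the named list genes, 1780 alternative values were computed, of which 1534 kept direction and side of the threshold, 146 lost and 46 gained the call, and 54 changed sign. Those that changed sign had not passed the test with all arrays. In TG tamoxifen against TG vehicle, Retn (0.11) gave -0.082 with the deposited scaling, -0.20 regrouped and -0.73 to 1.21 with 1 array left out. Adipoq (-0.066) gave 1.08 regrouped, 0.53 without both conflicting arrays and -0.63 to 0.69 with 1 array left out, Scd1 on 1415965_at (-0.0054) gave 0.054 with array weights and -0.16 to 0.19, and Lipe on 1432180_at (1.01) gave -0.0044 to 1.66. In NTG tamoxifen against NTG vehicle, Lipe on 1422820_at (0.013) gave -0.0020 with the deposited scaling, -0.17 with median centring and -0.26 to 0.35 with 1 array left out. Cidea (0.17) gave -0.058 with median centring and -0.044 to 0.50. Array omission alone turned Slc36a2 (-0.51 to 3.3e-05), Ces1d on 1435371_x_at (-0.83 to 0.60), Adipoq (-1.14 to 0.27) and Retn (-0.95 to 0.59). In TG vehicle against NTG vehicle, Ces1d on 1449081_at (0.0016) gave -0.0029 with the deposited scaling, -0.12 with median centring, -0.027 with array weights and -0.12 to 0.078 with 1 array left out. Array omission turned Adipoq (-1.27 to 0.066), Scd1 on 1415965_at (-0.064 to 0.40) and Lipe on 1432180_at (-0.22 to 1.74). In TG tamoxifen against NTG tamoxifen, Adipoq (0.071) gave -0.015 with log2(value + 64), -0.11 with the deposited scaling, -0.089 without both conflicting arrays and -0.84 to 0.60 with 1 array left out. Retn (-0.14) gave 0.97 without both conflicting arrays and -1.01 to 0.97, Scd1 on 1415965_at gave -0.28 to 0.073 and Lipe on 1432180_at -0.14 to 0.93. In the difference between tamoxifen effects, Dgat2 on 1422678_at (-0.32) gave 0.0055 with median centring and -0.76 to -0.026 with 1 array left out. Lipe on 1432180_at (-0.39) gave 0.33 regrouped, 0.39 without both conflicting arrays and -1.40 to 0.55, Retn gave -0.48 to 1.497 and Adipoq -0.33 to 1.34. The cause was not tested.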

Other observations

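As a description, genes were ranked by the Pearson correlation of their log2 values with a member over the 12 arrays, among 11165 or 11166 genes whose brightest probe set was at or above the median probe set. The arrays share the 4 groups, so differences between groups enter these values, and no p is given. Closest to Slc36a2 were Fn3k (r = 0.989), Itgb1bp2 (0.983), Klf15 (0.980), Cpt2 (0.978) and Asb2 (0.977). Closest to Ces1d on 1449081_at were Mtfp1 (r = 0.986), Ptpn3 (0.985), Ttll1 (0.983), Etfdh (0.983) and Pdf (0.983). Adipoq, dim on these arrays, had no partner as close: Clvs1 (r = 0.826), Mxra7 (0.774), Ndrg3 (0.767), Spon2 (0.761) and Myl1 (0.755).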
